A study of Mus musculus with 16 samples.

Results

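The transcripts described here were those of 44 mouse genes of the Wnt pathway, measured by RNA sequencing in TM4 cells, a mouse line with features of Sertoli cells, the somatic supporting cells of the testis. The genes were listed by symbol and each was found once among the 56748 genes of the count table; the list held 11 Wnt ligands and, beside them, receptors and co-receptors, secreted antagonists, the R-spondin arm, the beta-catenin destruction complex, the TCF/LEF factors and feedback targets. In the study, TM4 cells were transfected with plasmid DNA to ask which genes respond to gdf6Y, the male sex determinant of the turquoise killifish and a growth factor of the BMP family. The 6 EV samples received the empty pcDNA3.1-HA vector, the 5 gdf6Y samples a plasmid for the killifish factor, and the 5 del9 samples a plasmid for gdf6Y del9, a variant with an in-frame deletion in the prodomain. All 16 samples received 2.5 µg of plasmid per well at 24 h after seeding and were lysed for RNA 24 h later. EV thus lacks a killifish transcript, whereas del9 controls for expressing one. The model is a single cell line under transient transfection, and neither the share of cells that took up a plasmid nor the transgene itself could be read from the mouse counts.

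Wnt ligands are lipid-bearing secreted proteins that bind Frizzled receptors. Together with the co-receptors Lrp5 or Lrp6 they stop the destruction complex, built on Axin and Apc, from marking beta-catenin for degradation, and beta-catenin then acts with TCF/LEF factors in the nucleus. Dickkopf and Sfrp proteins block the signal outside the cell, R-spondins prolong it by removing the ligases Znrf3 and Rnf43 from the surface, and in the gonad the pathway is best known for its part in ovarian development.

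Total counts ranged from 21486850 to 26444903 per sample, and no pair of replicates agreed within sampling noise (chi-square per degree of freedom from 1.41 to 11.5 over 35 pairs). The labels do not say whether the samples of a group came from separate cultures, so the spread between them may be partly technical. The p-values and standard errors (SE) of the edgeR fits below rest on a variance that is moderated across genes. They can therefore be smaller than a gene's own spread between samples implies. Of the Sertoli cell markers, Gata4 (831 ± 6.04 normalized counts in EV, SD, n = 6) and Kitl (707 ± 19.6) were the highest of the 10 listed. Dhh (91.9), Sox9 (43.0), Inha (35.8) and Amh (5.49) were lower, Wt1 and Dmrt1 had no read, and Fshr and Cldn11 had at most 1 read in any sample. Of the peritubular myoid markers, Acta2 was high at 4530 ± 83.2 in EV, Cnn1 was at 32.0 and Myh11 had at most 3 reads in a sample. Among Leydig cell markers, Star was at 26.3 and Insl3 at 2.94, while Cyp17a1 and Hsd3b1 had no read. Of the germ cell and macrophage markers, Csf1r was at 6.92, Dazl at 2.21 and Ptprc at 1.02, and Ddx4 and Adgre1 had at most 1 read in any sample. Of the 22 markers, 16 were tested in gdf6Y versus EV, 17 in gdf6Y versus del9 and 18 in del9 versus EV. Only Gata4 passed, being lower in gdf6Y than in EV (722 ± 19.0, n = 5, log2 fold change -0.20), a comparison in which 5.08% of all genes passed. Its p adjusted over all genes by the Benjamini-Hochberg method was 1.0e-04 in edgeR's quasi-likelihood test, the test behind all adjusted p-values below unless another is named. In RNA from whole wells, fewer cells expressing a gene and less RNA per cell cannot be told apart.

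Few genes of the pathway passed the test between plasmids, and the differences were small. In gdf6Y against EV, Wnt7b fell by 19.1%, Dkk2 fell by 11.3%, Apc fell by 9.61% and Lrp6 fell by 7.35%, while Tcf7l1 rose by 10.7%. Of these calls, only that of Wnt7b was kept in all 19 alternative fits described below. Those of Dkk2 and Apc were each lost in 2, and those of Lrp6 and Tcf7l1 each in 5. Against del9, Wnt7b and Fzd6 were lower in gdf6Y. The del9 samples in turn had more Wnt7b and less Dkk2 and Lrp6 than EV. The remaining genes that were tested, beta-catenin (Ctnnb1), the ligand Wnt5a and the target gene Axin2 among them, did not pass the test in any of the 3 comparisons.

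In each comparison 37 of the 44 genes had the minimum of 1 read needed for testing. Here, 5 of 37 (13.5%) passed in gdf6Y versus EV, beside 5.08% of all 26316 genes tested. In gdf6Y versus del9, 2 of 37 (5.41%) passed, both lower, beside 1.01% of 25878 genes. None of the 37 was higher in gdf6Y than in del9 by edgeR, where 1 gene was higher at an unadjusted p below 0.05 and DESeq2 called 0. In del9 versus EV, 3 of 37 (8.11%) passed, beside 9.25% of 26226 genes. Among genes with at least 10 reads on average, which include every listed gene called, 20.8%, 8.33% and 12.5% of the 24 listed genes passed in the 3 comparisons, beside 10.5%, 1.8% and 18.2% of all 12584. Counted by direction, higher calls made up 1.7%, 0.599% and 4.82% of all genes in the 3 comparisons in the same order, and lower calls 3.38%, 0.41% and 4.43%. The median log2 fold change over the 24 genes of the list with at least 10 reads was -0.01, 0.01 and 0.00, and over all genes of that depth 0.00, 0.00 and 0.01, so the middle of the list lay near that of all genes. EV samples served in both comparisons against EV and gdf6Y samples in both comparisons of gdf6Y, which are therefore not independent.

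**Figure D1:**
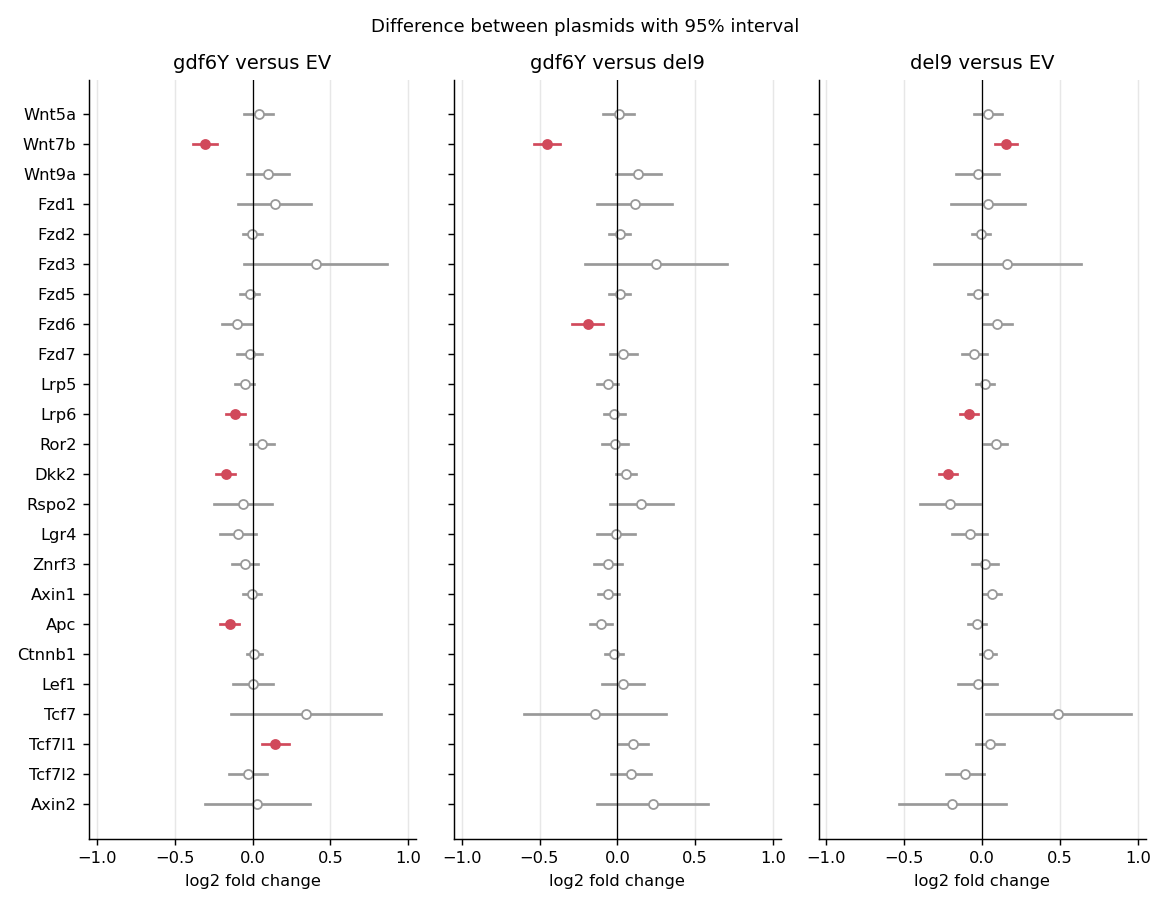
Log2 fold change (x axis) with its 95% interval for the 24 Wnt pathway genes with at least 10 reads on average, in the 3 comparisons. Filled red points passed the test (adjusted p below 0.05); Wnt7b passed in all 3 comparisons, lowest in gdf6Y versus del9 at -0.45, and Tcf7l1 is the red point to the right of 0 in gdf6Y versus EV.

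The RefSeq promoter table (GRCm38.p6) held entries for 27 of the 44 genes, among them Dkk2 and Tcf7l1 of the 6 that passed a test; Wnt7b, Lrp6, Fzd6 and Apc had none. Dkk2, an antagonist that was lower under both killifish plasmids, and Tcf7l1, a TCF factor that was higher under gdf6Y, are therefore the ones shown. Each run gives the 250 bases before the annotated start, read 5′ to 3′ on the gene's own strand, for Dkk2 at chr3:132085042-132085291 on the plus strand and for Tcf7l1 at chr6:72789046-72789295 on the minus strand. Capitals mark CTTTG, the core of the TCF/LEF site, or its reverse complement.
Dkk2: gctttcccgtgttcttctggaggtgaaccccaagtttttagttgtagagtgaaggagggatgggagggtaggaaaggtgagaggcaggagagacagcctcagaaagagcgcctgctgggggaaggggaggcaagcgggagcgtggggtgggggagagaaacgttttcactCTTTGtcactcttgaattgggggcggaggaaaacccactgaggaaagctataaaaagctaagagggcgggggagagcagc
Tcf7l1: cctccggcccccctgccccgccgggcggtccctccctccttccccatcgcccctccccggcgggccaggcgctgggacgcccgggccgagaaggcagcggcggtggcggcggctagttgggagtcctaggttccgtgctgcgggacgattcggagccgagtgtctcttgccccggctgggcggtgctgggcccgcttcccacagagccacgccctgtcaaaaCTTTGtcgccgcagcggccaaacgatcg
Each window held 1 match, beginning 80 bases before the start of Dkk2 and 28 bases before that of Tcf7l1, but 48.6% of the 32851 windows in the table held this core. All searches covered both strands. The longer TCF/LEF letters CTTTGAA, which contain the core, were in 4.46% of windows. The variant CTTTGAT was in 3.21%. The letters GGCGCC, found at Smad1/5 sites, were in 9.59% of windows, and CAGACA, which holds a Smad box, was in 17.1%. Neither of the windows shown held any of these longer letters. A match describes the letters only, and a missing match concerns this window only.

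Levels are compared between genes as RPKM, that is, reads scaled by the exonic length in kilobases and by the effective library size, computed here from the counts. At least 10 reads on average were found for 24 genes, fewer for 14, and none in any sample for 6, namely Wnt2, Wnt11, Dkk1, Sfrp1, Sfrp2 and Rspo3. A count of 0 allows up to 3 reads in a library, by counting error alone. By this measure the strongest transcript was Ctnnb1 at 63.9 ± 0.998 in EV (SD, n = 6), followed by Dkk2 at 32.5 ± 1.92 and the receptor gene Fzd2 at 29.9 ± 1.35. The EV samples of Dkk2 and Fzd2 overlapped at this scale, whereas Ctnnb1 was above both in every sample. The cells thus carried transcripts for a ligand, Frizzled receptors, both Lrp co-receptors, Axin1, Apc, beta-catenin and TCF/LEF factors. Axin2, a feedback target of the route, was low at 0.190 ± 0.037, and whether the route was active was not tested.

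**Figure D2:**
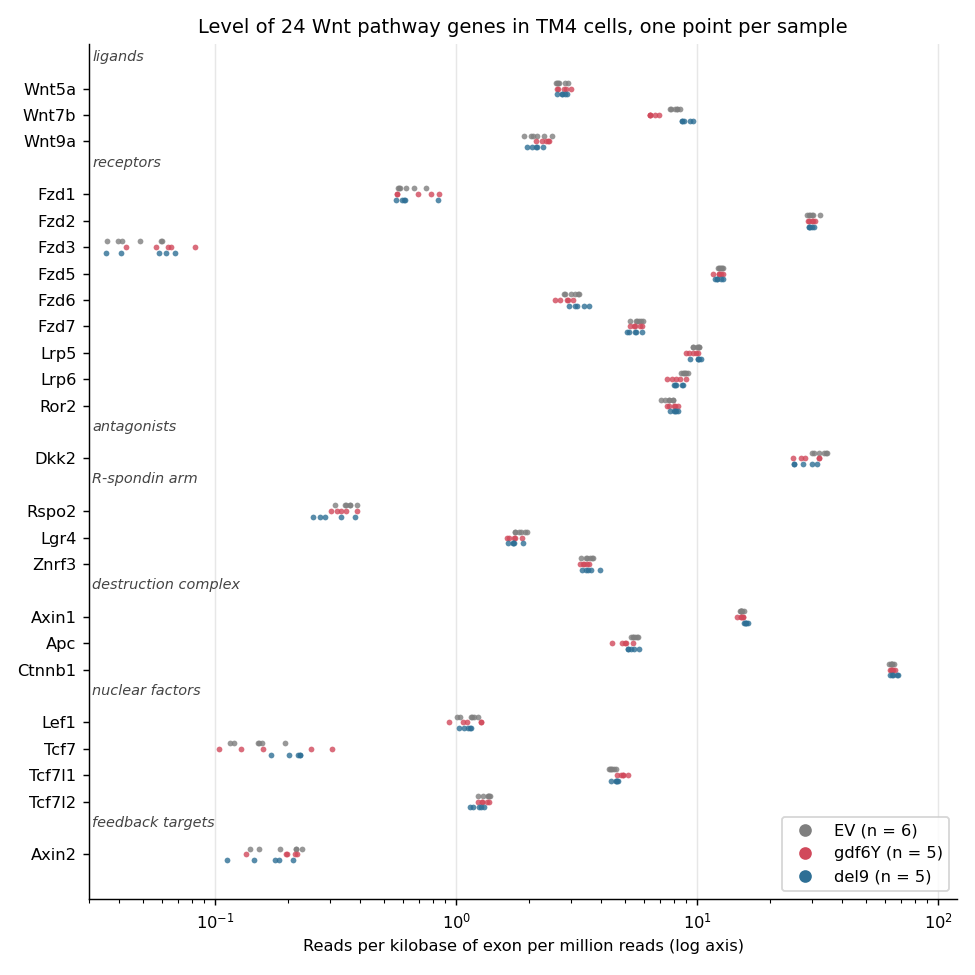
Level of the 24 Wnt pathway genes with at least 10 reads on average, as RPKM (reads scaled by exonic length and library size; log axis), with 1 point per sample coloured by plasmid and genes ordered by role. Ctnnb1, Dkk2 and Fzd2 lie at the top of the scale, Fzd3, Tcf7, Axin2 and Rspo2 at the bottom, and the differences between genes are far larger than those between plasmids.

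Among the ligands, Wnt7b was the main transcript and the one whose level moved in every comparison. Wnt7b, a ligand of the beta-catenin route in several epithelia, lies at chr15:85419638-85466674 (GRCm39, minus strand). Its normalized count in EV was 975.2 at the lowest, 1036 at the median and 1071 at the highest. In the 5 gdf6Y samples it was 805, 808, 808, 847 and 877, and in the 5 del9 samples 1097, 1217, 1091, 1109 and 1174. No gdf6Y sample reached the lowest EV sample and every del9 sample exceeded the highest, so that no 2 groups overlapped. The log2 fold change was -0.30 (SE 0.04) in gdf6Y versus EV, with an adjusted p of 7.9e-12 by edgeR. In gdf6Y versus del9 it was -0.45 (SE 0.04, adjusted p = 1.5e-23), so that Wnt7b fell by 26.9% from the del9 level. The 2 control plasmids also differed, with 11.2% more Wnt7b in del9 than in EV (log2 fold change 0.15, SE 0.04, adjusted p = 8.6e-04), so part of the gap to del9 lies on the del9 side. A 2-sided exact permutation test over the samples, added after the spread was seen, gave p = 0.00216 for each comparison with EV and p = 0.00794 against del9, the smallest values these group sizes allow. This test was run only on genes already called and on the same values. It is therefore no separate support, here or for the genes below.

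The other ligands in this list did not pass the test. Wnt5a, which acts mostly apart from beta-catenin, had normalized counts from 512 to 575 in EV (median 526), of 553, 590, 520, 564 and 524 in gdf6Y, and of 546, 573, 521, 544 and 558 in del9. These groups overlapped throughout, with a log2 fold change of 0.04 in gdf6Y versus EV (95% interval -0.05 to 0.13). Wnt9a was close to Wnt5a in level, at 2.17 ± 0.207 against 2.71 ± 0.131 RPKM in EV, and had an interval of -0.04 to 0.23 for the same comparison. With Wnt7b the one ligand called, the make-up of the ligand transcripts differed between plasmids. Wnt7b made up 61.6% ± 1.07 of the summed level of the 11 ligands in EV, 55.3% ± 1.09 in gdf6Y and 63.7% ± 1.08 in del9. Wnt9a made up 16.5%, 19.6% and 15.1% in the same order, and its own level was not shown to change. The summed level was 13.2 ± 0.467 in EV, 11.8 ± 0.322 in gdf6Y and 14.1 ± 0.499 in del9. Of the rest, Wnt6 reached 14 reads in 1 sample, Wnt10a reached 9 and Wnt2b 6, while Wnt3, Wnt5b and Wnt10b had from 4 to 7 reads in all 16 samples together.

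**Figure D3:**
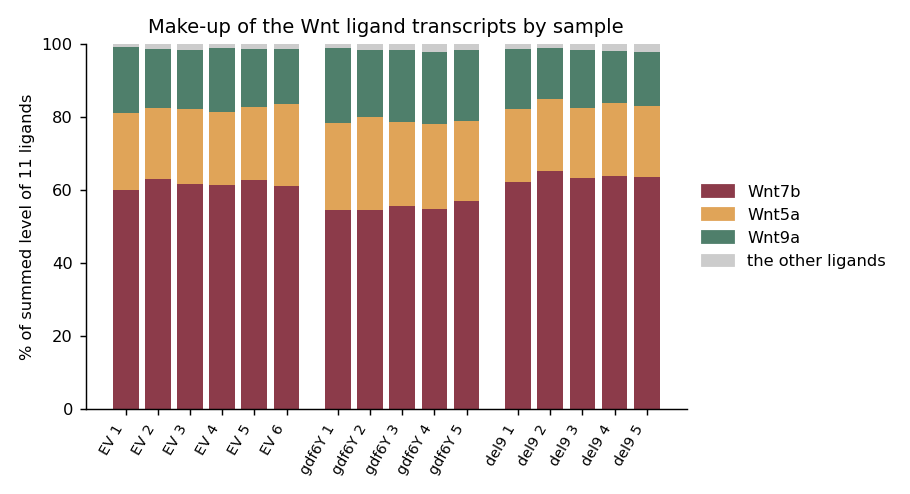
Share of the summed level of 11 Wnt ligand genes (y axis, %) taken by Wnt7b, Wnt5a, Wnt9a and the other ligands in each of the 16 samples. Wnt7b makes up 60.01% to 63.0% in EV, 54.4% to 57.1% in gdf6Y and 62.3% to 65.3% in del9.

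The receptors were led by Fzd2 and Fzd5, which did not differ between plasmids. Fzd2 had normalized counts from 2569 to 2917 in EV (median 2675), of 2695, 2632, 2790, 2596 and 2735 in gdf6Y, and of 2694, 2660, 2634, 2622 and 2760 in del9. Its log2 fold change in gdf6Y versus EV was 0.00 (95% interval -0.06 to 0.06), so a change of the size seen for Wnt7b lay outside the interval. Fzd5 had from 2089 to 2186 in EV (median 2139), 2196, 2112, 2096, 2146 and 1988 in gdf6Y, and 2140, 2183, 2056, 2069 and 2020 in del9, with an interval of -0.08 to 0.04. Fzd7 (5.67 RPKM in EV), Ror2, the receptor for Wnt5a (7.60), and the co-receptor Lrp5 (9.91) were likewise not called. Fzd1 and Fzd3 were low at 0.629 and 0.0476, and Fzd4, Fzd8 and Ror1 stayed below 10 reads on average.

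Fzd6, a Frizzled known for planar cell polarity, was lower in gdf6Y than in del9. Its normalized count was 435, 516, 491, 457 and 486 in gdf6Y and 534, 572, 604, 527 and 496 in del9, and ran from 475 to 548 in EV (median 514). The groups overlapped, since the highest gdf6Y sample exceeded the lowest del9 sample. The log2 fold change to del9 was -0.19 (SE 0.05, adjusted p = 0.024 by edgeR), and the exact permutation p was 0.0159. DESeq2 did not call it (adjusted p = 0.267), and edgeR did not without gdf6Y replicate 1 (adjusted p = 0.148) or 4 (0.122) or without del9 replicate 2 (0.124) or 3 (0.252). Against EV the value was -0.10 (95% interval -0.20 to -0.0044, adjusted p = 0.306 by the edgeR test), with EV lying between the other groups in mean.

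Lrp6, the co-receptor that recruits Axin to the membrane, was slightly lower with both killifish plasmids, by calls that several alternatives removed. Its normalized count ran from 3255 to 3478 in EV (median 3362), was 3429, 3104, 2976, 3219 and 2857 in gdf6Y, and was 3310.0, 3296, 3052, 3115 and 3072 in del9. One gdf6Y sample, replicate 1, lay within the EV range and the other 4 below it, and in del9 replicates 1 and 2 lay within it. The log2 fold change was -0.11 (SE 0.03, adjusted p = 0.0078) in gdf6Y versus EV and -0.09 (SE 0.03, adjusted p = 0.035) in del9 versus EV by edgeR. Between gdf6Y and del9 it was -0.02 (95% interval -0.08 to 0.05). On the log2 scale the SD was 0.10 in gdf6Y, 0.06 in del9 and 0.03 in EV. The gdf6Y samples thus spread more than the SE against EV implies. The call in gdf6Y versus EV was lost without gdf6Y replicate 3 (adjusted p = 0.0795 by edgeR) or 5 (0.158) and with filterByExpr (0.0566). That in del9 versus EV was lost without any of EV replicates 1, 3 and 4 or del9 replicates 3, 4 and 5 (0.0603 to 0.172) and with 3 groups in one model (0.0545). Both were lost with length offsets. Lrp6 is a long transcript of 15430 exonic bases, and a trend on gene length set EV apart from both killifish plasmids, as described with Apc.

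Secreted antagonists were represented almost wholly by Dkk2. Dkk2 binds Lrp5 and Lrp6 and lies at chr3:131790336-131886065 (GRCm39, plus strand); it made up 99.9% of the summed level of the antagonists listed in each group. Its normalized count ran from 3141 to 3616 in EV (median 3429), was 3353, 2598, 2926, 3353 and 2821 in gdf6Y, and was 3281, 2637, 2879, 3118 and 2635 in del9. In gdf6Y, 2 samples lay within the EV range and 3 below, and in del9, 1 sample lay within it and 4 below. The log2 fold change was -0.17 (SE 0.03, adjusted p = 2.8e-06) in gdf6Y versus EV and -0.22 (SE 0.03, adjusted p = 5.3e-12) in del9 versus EV by edgeR. The lower level was thus seen with both killifish plasmids, and gdf6Y and del9 differed by 0.05 (95% interval -0.01 to 0.12). The samples of a group spread more than these errors imply, with an SD of 0.16 in gdf6Y and 0.14 in del9 on the log2 scale, and the exact permutation p was 0.0498 in gdf6Y versus EV and 0.013 in del9 versus EV. DESeq2 did not call the first (adjusted p = 0.0951) and called the second (adjusted p = 0.0108). Dkk3 had from 2 to 5 reads per sample in EV, 4, 0, 2, 1 and 2 in gdf6Y and 1, 5, 0, 3 and 3 in del9, and Wif1 and Notum had at most 1 read in any sample.

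The R-spondin arm did not pass the test in any comparison. Znrf3, a ligase that removes Frizzled from the surface, had normalized counts from 649 to 732 in EV (median 700.3), of 701, 670.1, 667, 689 and 648 in gdf6Y, and of 660.5, 781, 715, 681 and 698 in del9. Lgr4, a receptor for R-spondins, had from 321 to 363 in EV (median 338), 344, 321, 318, 305 and 298 in gdf6Y, and 301, 349, 317, 319 and 316 in del9. Both overlapped between all groups, with 95% intervals in gdf6Y versus EV of -0.13 to 0.04 for Znrf3 and -0.21 to 0.02 for Lgr4. Rspo2, the one R-spondin of the list with reads, had 108 ± 7.39 in EV, 103 ± 9.96 in gdf6Y and 93.2 ± 15.7 in del9 (log2 fold change -0.21 in del9 versus EV, adjusted p = 0.202 by edgeR), and Rnf43 had at most 6 reads in a sample.

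Within the destruction complex, Ctnnb1 and the scaffold Axin1 did not pass, and Apc did in gdf6Y versus EV. Ctnnb1, which encodes beta-catenin, had normalized counts from 12593 to 13187 in EV (median 12872), of 13081, 12643, 13298, 12834 and 12909 in gdf6Y, and of 12737, 13076, 13643, 12963 and 13499 in del9. The 95% interval of its log2 fold change in gdf6Y versus EV was -0.04 to 0.06. Axin1 had from 2872 to 2973 in EV (median 2907), 2954, 2901, 2946, 2905 and 2792 in gdf6Y, and 3027, 2997, 3050, 2968 and 3109 in del9. Every del9 sample of Axin1 exceeded every gdf6Y sample, by 0.06 on the log2 scale in the mean, and the difference was not called (adjusted p = 0.654 by edgeR).

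Apc, a scaffold needed for degrading beta-catenin, had normalized counts from 2353 to 2522 in EV (median 2423), of 2403, 2217, 2150, 2251 and 1969 in gdf6Y, and of 2418, 2538, 2275, 2353 and 2279 in del9. Replicate 1 of gdf6Y lay within the EV range and the other 4 below it. On the log2 scale the SD was 0.105 in gdf6Y and 0.037 in EV, a wider spread than the SE below implies. The log2 fold change in gdf6Y versus EV was -0.15 (SE 0.03, adjusted p = 2.7e-04 by edgeR), with an exact permutation p of 0.00649. It was -0.11 in gdf6Y versus del9 (adjusted p = 0.139; -0.14 and called without gdf6Y replicate 1, adjusted p = 0.0125 by edgeR) and -0.03 in del9 versus EV (adjusted p = 0.522). Apc spans 17959 exonic bases, beside a median of 6152 over the 12584 genes with at least 10 reads. Across those genes, Spearman's rho between exonic length and a sample's deviation from the mean of all samples was above 0 in all 6 EV samples (0.083 to 0.237), below 0 in all 5 gdf6Y samples (-0.292 to -0.024), and between -0.168 and 0.065 in del9. With this trend removed by length offsets, Apc differed by -0.07 (adjusted p = 0.238) and Lrp6 by -0.05 in gdf6Y versus EV (adjusted p = 0.484) and -0.04 in del9 versus EV (adjusted p = 0.453), and none was called. The trend sets EV apart from both killifish plasmids, which overlap each other. In the comparisons with EV, a change of long transcripts as such and a change of Apc and Lrp6 therefore cannot be told apart. Wnt7b was -0.32 and Dkk2 -0.19 in gdf6Y versus EV with the offsets, and both were still called.

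**Figure D4:**
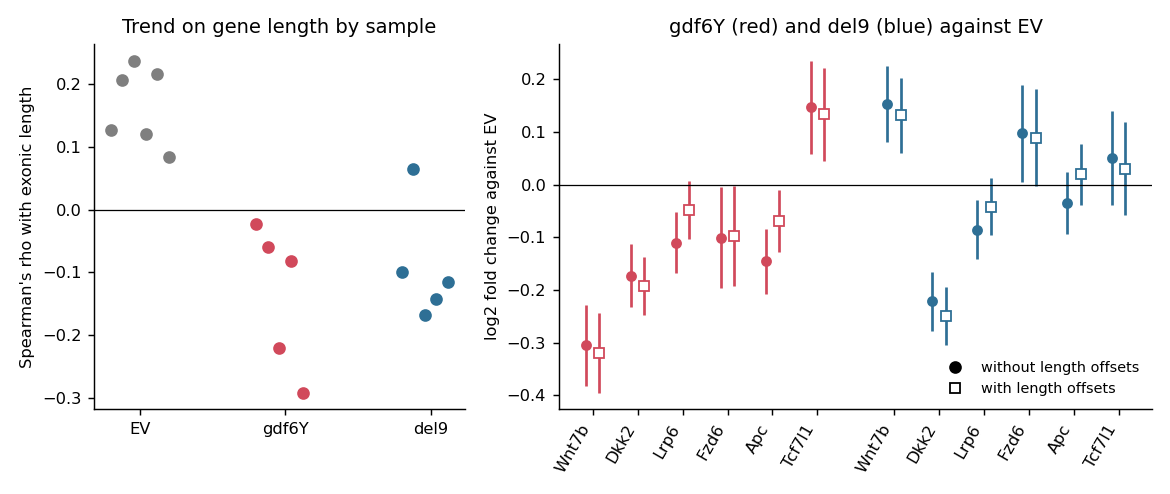
Left, Spearman's rho between exonic length and each sample's deviation from the mean over 12584 genes, 1 point per sample; right, log2 fold change with 95% interval of the 6 called genes against EV, without (filled circles) and with (open squares) length offsets. All EV samples lie above 0 and all gdf6Y samples below, and in gdf6Y Apc and Lrp6 move towards 0 with the offsets whereas Wnt7b and Dkk2 do not.

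Of the nuclear factors, Tcf7l1 was higher in gdf6Y than in EV. Tcf7l1, which acts mainly as a repressor of TCF/LEF target genes when beta-catenin is absent, was also the strongest of the 4 TCF/LEF transcripts in EV, at 4.43 ± 0.104 RPKM against 1.33 ± 0.060 for Tcf7l2, 1.13 ± 0.090 for Lef1 and 0.148 ± 0.029 for Tcf7. Its normalized count ran from 556 to 591 in EV (median 565), was 662, 633, 635, 620.1 and 594 in gdf6Y, and was 597, 601, 592, 563 and 590.5 in del9. All 5 gdf6Y samples exceeded the highest EV sample, the lowest of them narrowly, while gdf6Y and del9 overlapped. The log2 fold change was 0.15 (SE 0.04, adjusted p = 0.029) in gdf6Y versus EV by edgeR, a rise of 10.7%, with an exact permutation p of 0.00216. The call was lost without EV replicate 2 (adjusted p = 0.0510 by edgeR) or 3 (0.0664), without gdf6Y replicate 1 (0.0758) or 3 (0.0722), and with length offsets (0.0638), where the log2 fold change was 0.13. In GENCODE vM39, the spans of 5 other annotated genes, introns included, overlap that of Tcf7l1 on its own strand. The other 5 called genes overlap none on their strand. Reads shared with such genes would have been discarded, but whether exons are shared in the annotation used for counting was not tested. In gdf6Y versus del9 the value was 0.10 (95% interval 0.01 to 0.20, adjusted p = 0.538), and in del9 versus EV 0.05 (adjusted p = 0.522).

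The other TCF/LEF genes were not called. Tcf7l2 had normalized counts from 271 to 304 in EV (median 300.2), of 284, 303, 272, 284 and 296 in gdf6Y, and of 251, 289, 279.6, 260.2 and 275 in del9. Lef1, itself a target of the route, had an interval of -0.12 to 0.13 in gdf6Y versus EV. Axin2, a feedback target of the route, had 23.9 to 39.4 in EV (median 34.4), 37.5, 23.0, 33.6, 33.8 and 36.5 in gdf6Y, and 24.8, 19.2, 30.4, 31.3 and 35.9 in del9. The groups overlapped, and at this low count the 95% interval of the log2 fold change in gdf6Y versus EV was wide, from -0.31 to 0.37, and it held changes as large as that of Wnt7b. Nkd1, another feedback target, had 1 read in a single del9 sample and none elsewhere.

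Beyond the listed genes, 79 further genes of the route were counted, 53 of them with at least 10 reads. In gdf6Y versus EV, 2 of 71 tested were higher and 5 lower, which is 9.86% beside the 5.08% of all genes, and 13.2% beside 10.5% among genes with at least 10 reads. The 3 smallest adjusted p-values belonged to Tnks, a tankyrase that marks Axin for degradation (3447 ± 245 against 3944 ± 135 in EV; log2 fold change -0.19, adjusted p = 1.7e-08), Usp34, a deubiquitinase of Axin (-0.15, adjusted p = 5.1e-06), and Lgr6, a receptor for R-spondins (6148 ± 149 against 5589 ± 189; 0.14, adjusted p = 3.5e-05), by edgeR. Usp34 has 20958 exonic bases and was not called with length offsets (adjusted p = 0.244), whereas Tnks (adjusted p = 1.3e-04) and Lgr6 (adjusted p = 3.2e-06) were. Lgr6 stood at 30.6 RPKM in EV against 1.85 for Lgr4, which makes it the stronger of these R-spondin receptors in TM4 cells. In gdf6Y versus del9, edgeR called 0 of 68, with 3 higher and 7 lower at an unadjusted p below 0.05, and DESeq2 also called 0; the smallest adjusted p-values were those of Ccnd1 (0.063), Myc (0.0788) and Fosl1 (0.138).

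In del9 versus EV, 7 of the 70 further genes tested were higher and 3 lower, which is 14.3% beside the 9.25% of all genes, and 18.9% beside 18.2% among genes with at least 10 reads. Thus the share lay near that of all genes at this depth. Of the 7 higher, 5 were among the 9 genes downstream of beta-catenin, of which 8 were tested. That is 62.5% of those tested, beside 4.82% of all genes called higher, a share that includes genes with few reads. Among genes with at least 10 reads, 18.2% were called in either direction, and the share called higher at this depth is not given. The 5 downstream genes, named after their values were seen, were Fosl1, Ccnd1, Myc, Cd44 and Ppard. Their values with length offsets are not given here, though a trend on gene length set EV apart from del9. Fosl1, a subunit of the AP-1 factor, had 1871 ± 165 normalized counts in del9 against 1552 ± 83.3 in EV (log2 fold change 0.27, adjusted p = 2.5e-14 by edgeR), and 1728 ± 97.0 in gdf6Y (0.16 versus EV, adjusted p = 2.4e-04). Ccnd1, the cell cycle gene of cyclin D1, was at 14396 ± 888 in del9 and 13045 ± 765 in EV (0.15, adjusted p = 4.4e-07), and Tnks was lower in del9 than in EV by a log2 fold change of -0.16 (adjusted p = 9.7e-07). DESeq2 called 3 of the 5 downstream genes. Each of these genes is driven by other signals too, and del9 and EV overlapped for all 5. Ccn4, a secreted target gene, went the other way in gdf6Y, where it was lower than in EV (1830 ± 48.2 against 2033 ± 47.0; -0.15, adjusted p = 2.7e-04).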

How the data were processed

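The 16 TM4 samples were grouped by the plasmid given in their labels. The authors deposited 1 table of counts per gene. For it, they tagged reads by their unique molecular identifiers (UMI-tools), aligned them to GRCm39 with STAR 2.7.10a, removed PCR duplicates and counted uniquely mapped reads by strand with featureCounts 2.0.3, so the counts approach molecules, and reads shared by overlapping genes are lost. They left out 1 gdf6Y and 1 del9 library for quality. Libraries were poly(A)-selected, strand-marked and sequenced from single ends.

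From these counts, each pair of groups was fitted alone with edgeR 4.0.16 (R 4.3.3; TMM, quasi-likelihood test, genes with at least 1 read in any sample of the pair), with Benjamini-Hochberg adjustment over all genes tested and calls at an adjusted p below 0.05. A normalized count is the count divided by the effective library size and multiplied by the mean of these sizes over 16 samples; intervals are 95%. Exonic lengths came from GENCODE vM39 (GRCm39; 56017 of 56748 identifiers matched). Fits were tested on simulated counts. They held the nominal rate of false calls when dispersion followed the trend, but exceeded it when genes kept their own dispersion. Calls are therefore less firm than their adjusted p, and not only near the threshold. Dkk2 in gdf6Y versus EV had an adjusted p of 2.8e-06 by edgeR and was not called by DESeq2 (0.0951). DESeq2 1.42.0, its size factors, filterByExpr, 3 groups in one model, edgeR 4's dispersion estimate, a replicate block, length offsets and leaving out each sample were the alternatives. The exact permutation tests on the 10 calls were chosen after the data were seen. Values in every sample are given for called genes and for the 2 genes of the highest level in each role; of the further pathway genes, those called in both comparisons of gdf6Y (there were 0) and the 3 smallest adjusted p-values per comparison are named, with any others marked as chosen after their values were seen or given because a result turns on them. The genes, roles and lists were chosen with earlier results of these data known.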

Additional observations from a re-analysis of the deposited data

Results flagged for a closer look

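Within groups of 5 or 6 samples, 75 sets of values were screened for a sample that stands far from the others, by its gap to the nearest sample as a share of the group's range. Chance alone flags about 1 in 20 such sets, which is 3.75 of 75, and 5 were found. In del9, replicate 3 had the lowest total count (24608410 against 25650188 to 26071045, a gap of 0.712 of the range). Replicate 5 of del9 had 87.3 normalized counts of the receptor gene Fzd1, where the other 4 had 58.2 to 63.2 (gap 0.828). Replicate 4 of del9 was lowest for Lrp5 (2271 against 2444 to 2508, gap 0.729) and for Tcf7l1 (563 against 590.5 to 601, gap 0.729). In gdf6Y, replicate 2 had 23.0 normalized counts of Axin2 against 33.6 to 37.5 in the others (gap 0.737). None of these genes was called in a comparison that involves the sample, except that the total count of del9 replicate 3 enters each comparison with del9.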

How the results depend on the processing

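No call reversed its direction under any alternative. The 3 calls of Wnt7b and that of Dkk2 in del9 versus EV were kept in every alternative fit, with log2 fold changes of -0.33 to -0.29, -0.48 to -0.43, 0.12 to 0.17 and -0.27 to -0.19. Dkk2 in gdf6Y versus EV was lost with DESeq2 and filterByExpr, and Fzd6 was lost in 7 of 18 alternatives, DESeq2 and the edgeR 4 dispersion estimate among them. Lrp6 was lost in 5 of 19 alternatives in gdf6Y versus EV and in 9 of 19 in del9 versus EV. The exact permutation tests, chosen after seeing the data, were run on the 10 calls alone, on the values that made them and without adjustment, and are no separate support. For gdf6Y versus EV, the genes called lower numbered 2 with filterByExpr, 2 with length offsets and 2 with the replicate block and length offsets together, and those called higher 0 with length offsets. For gdf6Y versus del9, 1 was lower with DESeq2, 1 with filterByExpr and 1 with the edgeR 4 dispersion estimate, while all genes called numbered 81, 45 and 163. For del9 versus EV, 1 was lower with 3 groups in one model, with length offsets, and with length offsets and block. With length offsets the log2 fold change of Tcf7l1 was 0.13 against 0.15, and the cause of these shifts was not tested.

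Leaving out each sample in turn gave 794 (without gdf6Y replicate 5) to 1751 calls over all genes in gdf6Y versus EV, 160 (without del9 replicate 2) to 441 (without del9 replicate 1) in gdf6Y versus del9 and 1692 to 2715 in del9 versus EV. The listed genes called higher ran from 0 to 1, 0 to 0 and 1 to 1, and those called lower from 3 to 4, 1 to 2 and 1 to 3.

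Replicate numbers were not taken to pair the samples, since the labels give no shared batch and not every same-numbered pair correlated above 0.1: deviations of same-numbered samples correlated by 0.0040 to 0.20 in gdf6Y and EV (4 of 5 above 0.1), 0.099 to 0.16 in gdf6Y and del9 (4 of 5) and -0.03 to 0.16 in del9 and EV (2 of 5), and 3, 4 and 1 of 5 samples of the group named first correlated best with their own number. With the replicate block, all genes called numbered 2114 in gdf6Y versus EV, 661 in gdf6Y versus del9 (639 with length offsets) and 3007 in del9 versus EV; the listed genes called were those of the fit without the block, with Apc added in gdf6Y versus del9 (adjusted p = 0.0104).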

Other observations

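For Dkk2, the samples with replicate numbers 2 and 5 were the lowest of their group under all 3 plasmids. They had 3141 and 3199 normalized counts in EV, 2598 and 2821 in gdf6Y, and 2637 and 2635 in del9, against 3353 or more, 2926 or more and 2879 or more for the others. Between same-numbered samples, gdf6Y was below EV for 5 of 5 numbers (log2 ratios of -0.27 to -0.10) and del9 was below EV for 5 of 5 (-0.28 to -0.14). The labels do not say that a number marks a shared day or plate, and what these samples share was not tested.

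Rspo2 was called in del9 versus EV without del9 replicate 1 (log2 fold change -0.31, adjusted p = 0.0375 by edgeR's quasi-likelihood test).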
